A study of Mus musculus with 9 samples.

Results

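Border-associated macrophages are the macrophages of the meninges, the perivascular spaces and the choroid plexus. They lie at the borders of the brain and not in its tissue, where the microglia sit, and they take up proteins, lipoproteins and debris from blood and cerebrospinal fluid through scavenger receptors. In mice they are usually told from microglia by a small set of genes, and since both cell types carry CD11b on their surface, a CD11b sort of brain cells collects both. The genes described here are 7 such markers, chosen by symbol: Mrc1, Cd163, Lyve1, Stab1, Pf4, F13a1 and Cbr2. All 7 were found among the 23134 genes of the deposited table and all 7 were among the 16575 with a mean of at least 10 normalized counts, which were tested.

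RNA came from CD11b-bearing cells of cortex and hippocampus of mice aged 2 to 3 months. The tissue was dissociated, astrocytes bearing the surface antigen ACSA-2 were removed on beads, and CD11b beads then held the cells that were sequenced as microglia, from a polyadenylated RNA library. Control mice given saline, control mice given 5 mg/kg lipopolysaccharide (LPS, a bacterial cell wall component that sets off inflammation) into the peritoneum, and mice with a conditional knockout (cKO) in astrocytes given the same LPS each gave 3 libraries, 72 hours (3 days) after injection. The knocked-out gene is Chd8, which codes for a chromatin remodeller. The sources used here do not give the alleles, the Cre driver or the genotype of the control mice, and no cKO saline group was analysed here. Each sample title contains the word saline, also those of both LPS groups, and the cKO titles name their group as saline. Genotype and treatment labels and the authors' comparison names read LPS for both groups, which was used. The tissue label and the titles read cortex only, while the protocol names cortex and hippocampus. No label states that the numbered samples are separate mice, so a p-value here reflects the scatter of 3 samples a group, some of which may be technical.

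Normalized counts are the authors' read counts divided by a size factor for each library. The libraries held 10845937 to 86571481 reads, and the shallowest by far was saline library 3. Chd8 was at 4252 to 6596 normalized counts in saline, and its means were 5586 ± 227 (SD, n = 3) in control LPS and 5629 ± 525 (SD, n = 3) in cKO LPS. The deletion is in astrocytes, which the sort was meant to remove, so this level checks no label. Itgam, which codes for CD11b, averaged 72613 ± 3571 (SD, n = 3) in saline, 124760.1 ± 53438 in control LPS and 132058 ± 28267 in cKO LPS. In bulk RNA of this kind, fewer cells of a type and less RNA per cell cannot be told apart.

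Per kilobase of annotated exon, the markers spanned a wide range of levels. Stab1 had 4927 normalized counts per kilobase over the 9 libraries, followed by Mrc1 with 863, Pf4 with 859, Cbr2 with 724, F13a1 with 416, Cd163 with 292 and Lyve1 with 118. Stab1 thus lay far above the other 6. The order of Mrc1 and Pf4 turned between groups: mean Pf4 was at 1041 and Mrc1 at 740.2 per kilobase in saline. After LPS, Pf4 was at 798 and Mrc1 at 929 in controls, and Pf4 at 739 and Mrc1 at 919.6 in the cKO. By normalized count without length, Stab1 lay at percentile 99.6 of the tested genes and Lyve1 at percentile 44.1. A marker rested on at least 213 reads in every library (Lyve1 in cKO LPS library 2), for which the exact 95% interval of counting reached 14.4% above the count. These intervals cover counting error only.

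Mrc1 codes for the mannose receptor CD206, an endocytic receptor for glycoproteins (chromosome 2, 14229414 to 14332023, plus strand, GRCm38.p6). It was at 3610.1, 3488 and 7049.6 normalized counts in saline libraries 1, 2 and 3, at 4177, 5598 and 7982 in control LPS and at 6921, 5537 and 5119 in cKO LPS. Saline library 3 lay with the upper LPS libraries, and all 3 groups overlapped. The means were 4716 ± 2022 (SD, n = 3) in saline, 5919 ± 1923 in control LPS and 5859 ± 943 in cKO LPS. The gene holds the microRNA gene Mir511 in an intron.

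Cd163 codes for the scavenger receptor of haptoglobin and hemoglobin complexes (chromosome 6, 124304636 to 124330529, plus strand). It was at 781, 942 and 2021 normalized counts in saline, at 1659, 1578 and 2143 in control LPS and at 1780.5, 1312 and 2156 in cKO LPS. Saline libraries 1 and 2 lay below all 6 LPS libraries, and saline library 3 lay among the highest. The group means were 1248 ± 675 (SD, n = 3), 1794 ± 306 and 1749.6 ± 423.

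Lyve1 codes for a hyaluronan receptor that is also made by lymphatic endothelium (chromosome 7, 110850607 to 110862953, minus strand). It was at 337, 297 and 837 normalized counts in saline, at 236, 171 and 222 in control LPS and at 297, 174 and 525 in cKO LPS. Every control LPS library lay below every saline library, whereas the cKO LPS libraries overlapped both other groups. The means were 490.2 ± 301 (SD, n = 3) in saline, 209 ± 34.4 in control LPS and 332 ± 178 in cKO LPS.

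Stab1 codes for stabilin-1, a scavenger receptor of modified lipoproteins and matrix fragments (chromosome 14, 31139017 to 31168651, minus strand). It was at 36238, 51692 and 32678 normalized counts in saline, at 53902, 45863 and 45849 in control LPS and at 61231, 63008 and 65746 in cKO LPS. The 3 cKO LPS libraries were the highest of all 9 and close to each other. Saline and control LPS overlapped through saline library 2. The means were 40202 ± 10108 (SD, n = 3), 48538 ± 4646 and 63328 ± 2274. Over the 9 libraries Stab1 averaged 50689. That was within the range of the 12 homeostatic microglia markers, from 11874 for Slc2a5 to 374146 for Csf1r. Mrc1, the next marker, averaged 5498, below that range. The part of microglia in the level of Stab1 was not tested. Exons of Stab1 overlap Nt5dc2 on the other strand, which had a mean of 756 normalized counts, and the sources used here do not say whether counting used the strand.

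Pf4 codes for platelet factor 4, the chemokine CXCL4, which is also a main product of platelets (chromosome 5, 90772435 to 90773383, plus strand). It was at 616, 416 and 1219 normalized counts in saline, at 471, 519 and 736 in control LPS and at 630.2, 497 and 472 in cKO LPS. The 3 groups overlapped, with saline library 3 alone above the rest. The means were 750.3 ± 418 (SD, n = 3), 575 ± 141 and 533 ± 85.2.

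F13a1 codes for the A subunit of coagulation factor XIII, which crosslinks fibrin and is also made by monocytes (chromosome 13, 36867178 to 37050244, minus strand). It was at 1419.6, 1387 and 3093 normalized counts in saline, at 1919, 3691 and 3948 in control LPS and at 3119, 2321 and 4316 in cKO LPS. Saline libraries 1 and 2 were the lowest of the 9, and saline library 3 reached the level of the LPS libraries. The means were 1967 ± 976 (SD, n = 3), 3186 ± 1105 and 3252 ± 1004. The antisense genes Gm30489 and Gm49144 overlap F13a1 and have no values here.

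Cbr2 codes for carbonyl reductase 2, an enzyme that reduces carbonyl compounds (chromosome 11, 120729485 to 120732025, minus strand). It was at 461, 425 and 1280.3 normalized counts in saline, at 665, 1081 and 1248 in control LPS and at 1273, 864 and 1349 in cKO LPS. As with Cd163 and F13a1, saline libraries 1 and 2 were the lowest of the 9 and saline library 3 was among the highest. The means were 722 ± 484 (SD, n = 3), 998 ± 300.2 and 1162 ± 261.

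**Figure D1:**
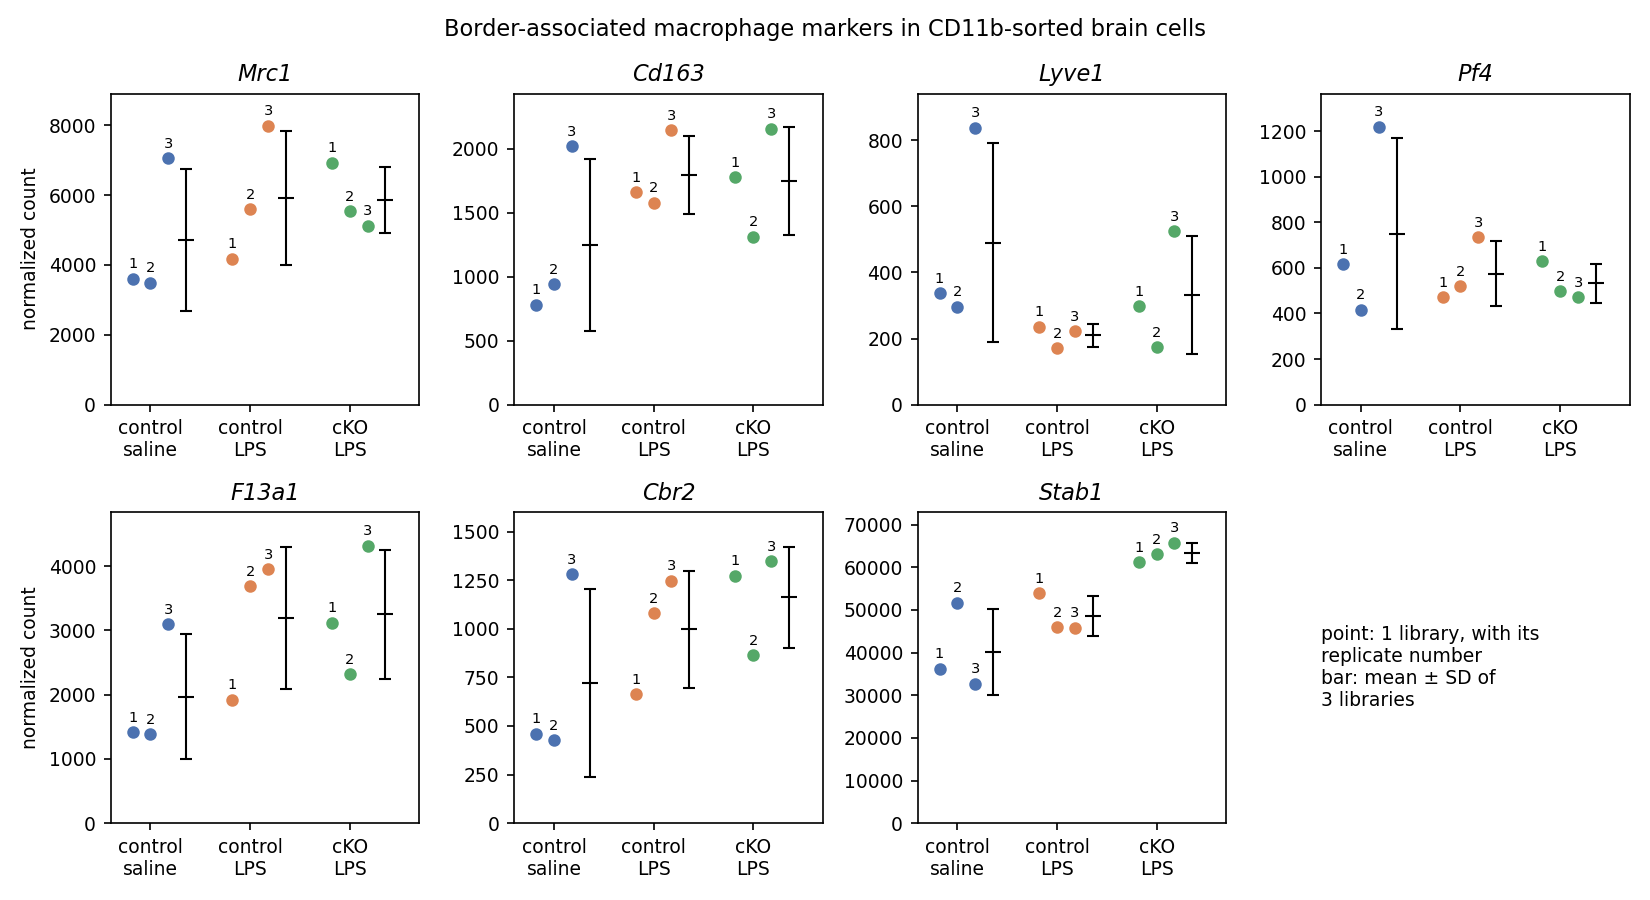
Normalized counts of the 7 markers in each library (points, with the replicate number) of control saline, control LPS and cKO LPS, with the mean ± SD of each group of 3 as a bar at its right. Saline library 3 is the highest saline library for every marker but Stab1, and the 3 cKO LPS libraries of Stab1, at 61231 to 65746, lie above all others.

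One library set much of the spread within the saline group. Saline library 3 was the highest of its group for 6 of the 7 markers, at 1.99 times the mean of saline libraries 1 and 2 for Mrc1, 2.20 times for F13a1, 2.35 times for Cd163, 2.36 times for Pf4, 2.65 times for Lyve1 and 2.89 times for Cbr2. Stab1 was the exception, at 0.743 times. The median marker lay 1.24 above the mean of the other saline libraries on the log2(value + 1) scale, against -0.038 for the median of all tested genes, and 36.1% of all tested genes were highest in that library. The same held for a longer list of genes that border-associated macrophages are known to express: 26 of the 29 that were tested were highest in saline library 3. Of the 12 homeostatic microglia markers, all but Sall1 and Csf1r were highest there too, so this was not particular to border-associated macrophage genes.

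Other quantities also stood apart in saline library 3. The summed level of MHC class II genes was 35360.1 normalized counts there, against 21857 and 14303 in saline libraries 1 and 2. The sum of 12 homeostatic microglia markers was 1631821, against 1138574 and 1346389.6, and that of 7 meningeal fibroblast markers was 2124, against 912 and 1099. Mitochondrial genes took 1.48% of its counts, against 0.928% and 0.863%. Genes with at most 2466 bases of exon had a median of 0.22 above the mean of the other saline libraries (log2), and genes with at least 6583 bases a median of -0.21, over the 92.8% of tested genes with a length. The markers high in that library include both short genes, such as Pf4 with 721 bases, and long ones, such as F13a1 with 6739 bases, while Stab1 has 10288. The part of depth, length and mitochondrial share in the marker levels was not tested. The sum of 7 choroid plexus and ependymal markers was highest in saline library 1, at 175987, against 13309.6 in library 2 and 37844 in library 3, so it did not follow the markers.

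In the other groups the markers moved together in part. Control LPS library 3 was the highest of its group for 5 of the 7 markers and control LPS library 1 the lowest for 4. In cKO LPS, library 3 was the highest for 5 markers and library 2 the lowest for 4, but Mrc1 and Pf4 were lowest in library 3. Number 3 was thus the highest library for most markers in each of the 3 groups. The mitochondrial share was also highest in number 3 of both LPS groups, at 1.09% in control LPS and 1.32% in cKO LPS. The labels do not say what the numbers mark, and an effect shared by number was not tested for the markers. After subtraction of each group's mean, Pearson's r over the 9 libraries among the 6 markers other than Stab1 ran from 0.45 to 0.95 over 15 pairs, with a median of 0.77. The 6 pairs with Stab1 ran from -0.86 to -0.38, with a median of -0.65. Without saline library 3 the first set ran from -0.14 (Mrc1 with Lyve1) to 0.96 with a median of 0.55, and the pairs with Stab1 from -0.78 to 0.24 with a median of -0.37. These correlations describe genes read from the same 9 libraries, which share depth and RNA quality, and carry no test.

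**Figure D2:**
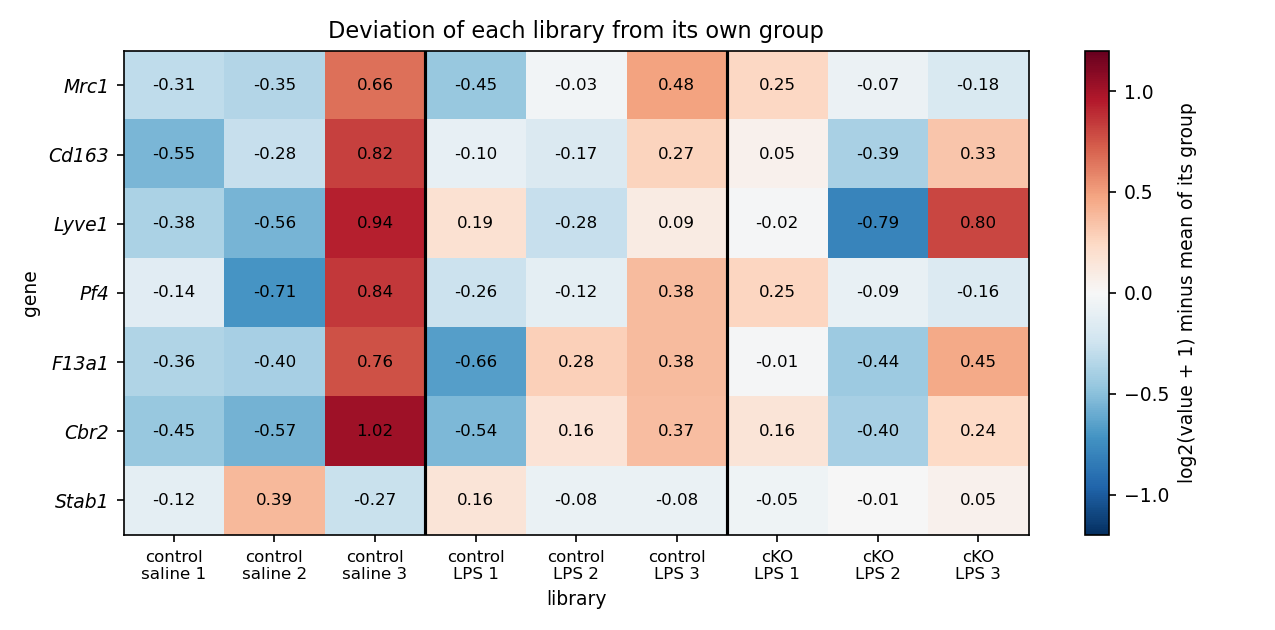
Deviation of each of the 7 markers (rows) in each of the 9 libraries (columns) from the mean of its own group, on the log2(value + 1) scale, with black lines between groups. Saline library 3 is above its group for 6 markers and below it for Stab1, whose sign is opposite to that of Mrc1 in 6 libraries: numbers 2 and 3 of saline, and numbers 1 and 3 of each LPS group.

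Stretches of 250 bases before a start in the RefSeq promoter table are shown for the receptor Mrc1, for the chemokine Pf4, which moved with it between libraries, and for Stab1, which did not. They are from RefSeq on GRCm38.p6, 5′ to 3′ on the strand of the gene. Mrc1 covers chr2:14229164-14229413 on the plus strand, Pf4 covers chr5:90772185-90772434 on the plus strand and Stab1 covers chr14:31168642-31168891 on the minus strand, so that its last bases lie inside the span of the gene given above. In Mrc1 and Pf4 the capitals mark the reverse complement of GGAAGT, a core bound by ETS factors such as the macrophage factor PU.1. In Stab1 they mark TGCTGA, part of the site bound by MAF factors, which also act in macrophages.
Mrc1: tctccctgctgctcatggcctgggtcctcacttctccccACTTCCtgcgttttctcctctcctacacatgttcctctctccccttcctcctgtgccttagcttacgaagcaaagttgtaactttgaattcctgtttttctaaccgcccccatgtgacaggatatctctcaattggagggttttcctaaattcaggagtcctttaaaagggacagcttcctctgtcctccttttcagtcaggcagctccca
Pf4: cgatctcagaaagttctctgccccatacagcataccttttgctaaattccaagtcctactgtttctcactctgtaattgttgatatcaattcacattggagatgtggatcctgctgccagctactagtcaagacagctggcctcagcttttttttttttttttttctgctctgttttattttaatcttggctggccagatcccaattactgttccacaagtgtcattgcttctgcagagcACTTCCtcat
Stab1: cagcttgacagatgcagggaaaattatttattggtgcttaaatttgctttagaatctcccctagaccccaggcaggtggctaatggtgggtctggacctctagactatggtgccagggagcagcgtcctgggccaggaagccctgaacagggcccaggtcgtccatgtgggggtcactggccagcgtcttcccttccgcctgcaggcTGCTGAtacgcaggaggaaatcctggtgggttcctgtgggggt
Each motif was searched on both strands. GGAAGT was in 3 of the 7 windows of 6 markers (Mrc1, Pf4 and 1 of 2 windows of F13a1) and in 19.7% of 32851 windows of all genes. TGCTGA was in 1 of the 7 (Stab1) and in 16.1% of all. The gapped motif of interferon-response factors was in none of the 7 and in 2.98% of all, and the palindromic motif of the glucocorticoid receptor was in none and in 0.00913%. No promoter of Lyve1 was used here. A match describes letters only and is not a bound site.

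In control LPS against control saline, no marker passed the test, and the differences ran in both directions. By limma with Benjamini-Hochberg adjustment over all tested genes and a threshold of 0.05, 0 of 7 markers were called, beside 5.6% of all tested genes. At an unadjusted p under 0.05 the count was 1 of 7, Lyve1, beside 18.8% of all. edgeR called 0 of 7, beside 5% of all genes, and DESeq2 0 of 7, beside 10.9%. The groups did not overlap for 1 of 7 markers, again Lyve1, beside 21.7% of all genes in either direction. The authors' deposited table called 0 of 7, beside 9.92% of its genes.

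Among the receptors, the difference in Lyve1 was -1.07 on the log2(value + 1) scale (SE 0.47, 95% interval -2.12 to -0.022, limma adjusted p = 0.255). In the authors' deposited table its adjusted p for that comparison was 0.0969, also above the threshold. Mrc1 differed by 0.36 (SE 0.31, limma adjusted p = 0.599), Cd163 by 0.64 (SE 0.33, limma adjusted p = 0.351) and Stab1 by 0.30 (SE 0.20, limma adjusted p = 0.496). Of the secreted proteins and the enzyme, F13a1 differed by 0.73 (SE 0.38, limma adjusted p = 0.351), Cbr2 by 0.61 (SE 0.42, limma adjusted p = 0.490) and Pf4 by -0.27 (SE 0.35, limma adjusted p = 0.7498). The median over the 7 was 0.36, beside 0.017 over all tested genes.

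These values depended on saline library 3. Without it, Cd163 differed by 1.05 (limma adjusted p = 0.0543), Cbr2 by 1.121 (limma adjusted p = 0.0875), F13a1 by 1.11 (limma adjusted p = 0.137) and Mrc1 by 0.69 (limma adjusted p = 0.202). The difference in Lyve1 was then -0.60 (limma adjusted p = 0.511), and that in Pf4 turned to 0.16 (limma adjusted p = 0.8001). Leaving out any 1 of the 9 libraries gave no call of a marker in that comparison. With limma's array weights, which gave saline library 3 a weight of 0.391 and control LPS library 1 a weight of 0.316, Cd163, F13a1 and Cbr2 were called as higher, 3 of 7 markers beside 16.8% of all genes.

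In cKO LPS against control saline, Stab1 was higher in every cKO LPS library than in every saline library, and its call depended on the tool. Limma called 0 of 7 markers, beside 6.82% of all tested genes. At an unadjusted p under 0.05 it called 1 of 7, Stab1, beside 21.8% of all. edgeR called 0 of 7, beside 5.51% of all genes, and DESeq2 1 of 7, Stab1, beside 12.9% of the genes to which it gave an adjusted p. The groups did not overlap for Stab1 alone, 1 of 7 markers beside 31.7% of all genes.

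Stab1 was higher by 0.68 (SE 0.20, 95% interval 0.22 to 1.14), with an adjusted p of 0.0852 by limma, 0.0957 by edgeR and 0.00657 by DESeq2. The authors' deposited table gave it a log2 fold change of 0.66 and an adjusted p of 0.0122, and called 12.2% of its genes. Without saline library 2 limma called it too, and it was 1 of 7 markers called beside 3.57% of all genes. Cbr2 differed by 0.85 (limma adjusted p = 0.268), F13a1 by 0.79 (limma adjusted p = 0.267), Cd163 by 0.59 (limma adjusted p = 0.338) and Mrc1 by 0.38 (limma adjusted p = 0.499). Lyve1 differed by -0.54 (limma adjusted p = 0.5296) and Pf4 by -0.36 (limma adjusted p = 0.587). The median over the 7 was 0.59, beside -0.0080 over all tested genes.

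Saline library 3 mattered here as well, since the saline libraries are shared by both comparisons. Without it Cbr2 rose by 1.36 (limma adjusted p = 0.0467) and was the 1 of 7 markers called, beside 4.28% of all genes. Cd163 then differed by 0.9980 (limma adjusted p = 0.0548), F13a1 by 1.17 (limma adjusted p = 0.113) and Stab1 by 0.55 (limma adjusted p = 0.181). Lyve1 came to -0.072 and Pf4 to 0.063. With array weights limma called Cd163, F13a1, Cbr2 and Stab1, 4 of 7 beside 19.2% of all genes.

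In cKO LPS against control LPS, no marker passed the test, the groups overlapped for 6 of the 7, and the intervals were wide. Limma called 0 of 7 markers and 0% of all tested genes. At an unadjusted p under 0.05 it called 0 of 7 markers, beside 1.59% of all genes. edgeR called 0 of 7, and so did DESeq2, beside 0.0246% of the genes with an adjusted p, and the authors' deposited table, beside 0.0176%. Groups did not overlap for 1 of 7 markers, Stab1, beside 5.01% of all genes.

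Stab1 was at a mean of 63328 in cKO LPS and 48538 in control LPS, a difference of 0.39 (SE 0.20, 95% interval -0.073 to 0.85, limma adjusted p = 0.9999). The difference in Lyve1 was 0.53 with an interval of -0.52 to 1.58, and that in Cbr2 was 0.24 with an interval of -0.70 to 1.18. Mrc1 differed by 0.024 (-0.67 to 0.72), Cd163 by -0.052 (-0.81 to 0.70), F13a1 by 0.053 (-0.81 to 0.92) and Pf4 by -0.094 (-0.89 to 0.71). Such intervals hold differences of over 0.5 in either direction for these 6 markers, so they do not show equal levels. The sign of Mrc1, Cd163, F13a1, Cbr2 and Pf4 turned under at least 1 alternative. The median over the 7 was 0.053, beside -0.018 over all tested genes.

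**Figure D3:**
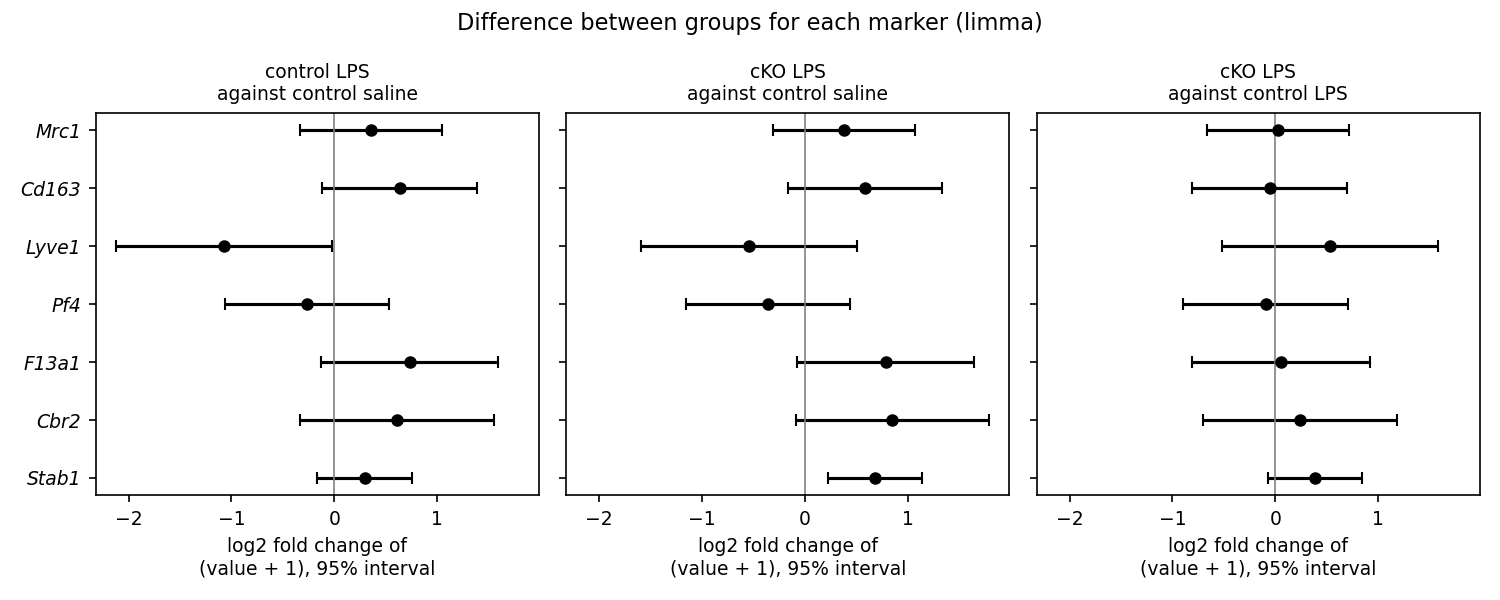
Difference between groups for each marker in the limma fit, as log2 fold change of (value + 1) with its 95% interval, in 3 comparisons. Most intervals include 0: the exceptions are Lyve1 in control LPS against control saline (-2.12 to -0.022) and Stab1 in cKO LPS against control saline (0.22 to 1.14), and neither passes adjustment over all genes.

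The composition of the signal was also read relative to Mrc1 in the same library, a choice made after the values were seen. Lyve1 stood at 93.2, 85.0 and 119 normalized counts per 1000 of Mrc1 in saline, at 56.5, 30.5 and 27.8 in control LPS and at 43.0, 31.4 and 103 in cKO LPS. Pf4 stood at 171, 119 and 173 in saline, at 113, 92.7 and 92.2 in control LPS and at 91.1, 89.7 and 92.2 in cKO LPS. For both genes the control LPS libraries lay below all saline libraries, and for Pf4 saline libraries 1 and 3 stood at nearly the same ratio. Only cKO LPS library 3 was high for Lyve1 among the LPS libraries.

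F13a1 stood at 393, 398 and 439 per 1000 of Mrc1 in saline, at 459, 659 and 495 in control LPS and at 451, 419 and 843 in cKO LPS. The control LPS libraries lay above the saline libraries, and the cKO LPS libraries overlapped saline. The log2 ratio differed between control LPS and control saline by -1.43 for Lyve1, by -0.62 for Pf4 and by 0.38 for F13a1, and between cKO LPS and control saline by -0.74 for Pf4. Each of these 4 had an exact two-sided permutation p of 0.1, the smallest that 3 against 3 allows, and 0.45 after Benjamini-Hochberg adjustment over 18 comparisons. Lyve1 in cKO LPS against control saline differed by -0.92 (exact permutation p = 0.3). For Cd163 the ratio was 216 to 287 in saline, 269 to 397 in control LPS and 237 to 421 in cKO LPS, and for Cbr2 it was 122 to 182, 156 to 193 and 156 to 264, with overlap between all groups.

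**Figure D4:**
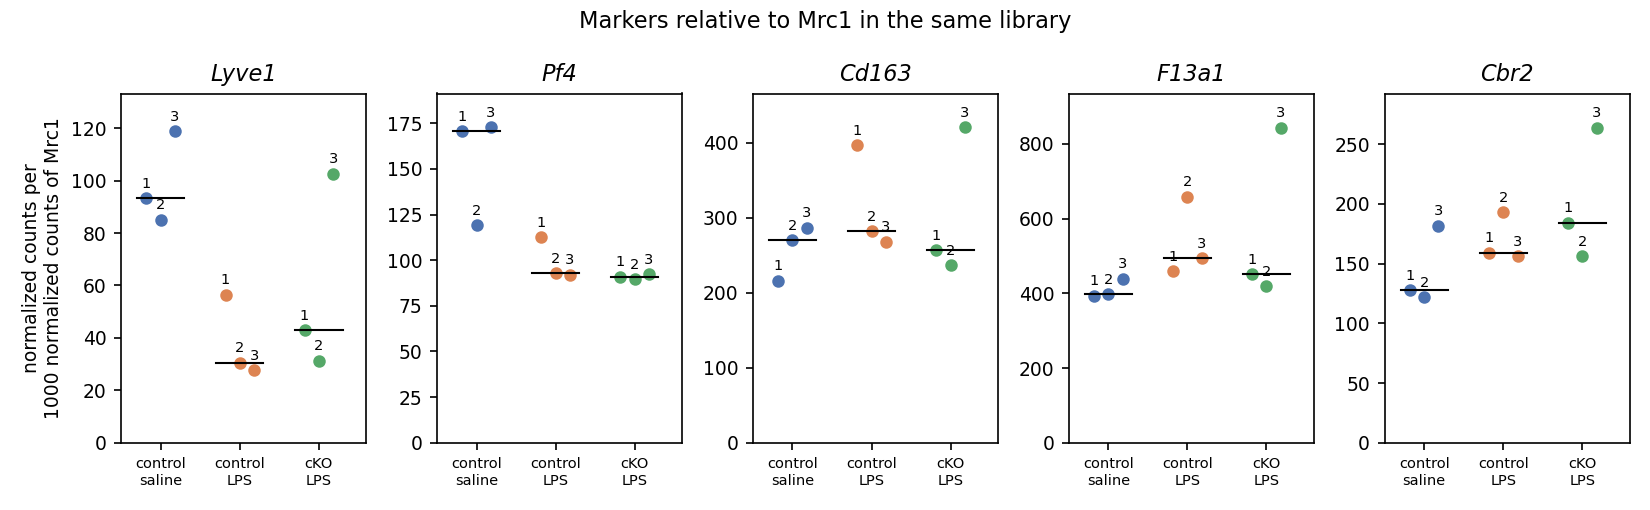
Normalized counts of 5 markers per 1000 normalized counts of Mrc1 in the same library (points, with the replicate number), with the median of each group of 3 as a line. Lyve1 and Pf4 lie lower in control LPS than in saline, at 27.8 to 56.5 against 85.0 to 119 and at 92.2 to 113 against 119 to 173.

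A list of 30 other genes known from border-associated macrophages split between higher and lower under LPS. Of 29 tested (Cd209d was too low), limma called 4 as higher and 6 as lower in control LPS against control saline, beside 4.68% and 0.923% of all tested genes, and 19 were not called. The median log2 fold change over the 29 was -0.061, beside 0.017 over all genes. In cKO LPS against control saline 5 were called higher and 5 lower, beside 5.41% and 1.41% of all genes. In cKO LPS against control LPS limma called 0 of 29, with 1 at an unadjusted p under 0.05 (Ccl24), and edgeR and DESeq2 each called 0. The balance depended on the settings. For control LPS against control saline DESeq2 called 7 higher and 5 lower, beside 10.9% of all genes in either direction, and limma with array weights 9 and 5, beside 16.8%. Leaving out 1 library gave 1 to 6 higher and 2 to 6 lower, with 1 and 2 without control LPS library 2 or 3 and 1 and 3 without saline library 1 or 2. For cKO LPS against control saline DESeq2 called 6 and 5, beside 12.9%, and limma with array weights 9 and 6, beside 19.2%. Leaving out 1 library gave 1 to 6 higher and 1 to 6 lower there: 2 and 2 without cKO LPS library 1, 2 and 3 without library 2, 2 and 1 without library 3, 2 and 5 without saline library 1, 1 and 4 without saline library 2 and 6 and 3 without saline library 3. In control LPS against control saline 3 genes, Siglec1, Cd209a and Ccl24, were called whichever 1 of the 9 libraries was left out.

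Siglec1, the sialic acid receptor sialoadhesin, which is known to be induced by interferon, was at 379, 522 and 609.7 normalized counts in saline and at 2513, 5640.4 and 2284 in control LPS. It rose by 2.69 (SE 0.44, limma adjusted p = 0.00929), and every LPS library lay above every saline library. Cd38, an enzyme that consumes NAD, rose by 1.76 (SE 0.36, limma adjusted p = 0.0229), from a mean of 153 to 521. Fxyd2, a subunit that modulates the sodium pump, rose by 1.33 (SE 0.28, limma adjusted p = 0.0266), from 32.5 to 83.3. Vsig4, a complement receptor of tissue macrophages, rose too (limma adjusted p = 0.0209), but rested on 4 reads in the saline group, at 0.987, 0 and 9.63 normalized counts against 29.3, 177 and 60.7 in control LPS. When 1 library was left out, the limma adjusted p of Cd38 ran from 0.00376 to 0.0929. That of Fxyd2 ran from 0.0303 to 0.114 and that of Vsig4 from 0.00807 to 0.0840.

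The genes that fell included C-type lectins and a chemokine. Cd209a, a C-type lectin also made by dendritic cells, was at 321, 148 and 372 normalized counts in saline and at 16.9, 11.8 and 16.6 in control LPS, a difference of -4.04 (SE 0.62, limma adjusted p = 0.00772). Its relative Cd209b fell by 2.77 (SE 0.52, limma adjusted p = 0.0174), from a mean of 102 to 12.3. Mgl2, a lectin for galactose and N-acetylgalactosamine, fell by 2.76 (SE 0.61, limma adjusted p = 0.0323). Its saline values were 399, 334 and 1306, so saline library 3 was again the highest. When 1 library was left out, the limma adjusted p ran from 0.0149 to 0.124 for Mgl2 and from 0.0198 to 0.0572 for Cd209b. The eosinophil-attracting chemokine Ccl24 was at 482, 359 and 869.6 in saline and at 132, 85.7 and 131 in control LPS, a fall by 2.21 (SE 0.35, limma adjusted p = 0.00849). Retnla and Hpgd, named after their values were seen because they complete the count, also fell. The difference in Hpgd was -1.43 (limma adjusted p = 0.0495), and its call was lost with the replicate block (limma adjusted p = 0.0661), with adjusted p from 0.0187 to 0.178 when 1 library was left out. Retnla was at 24.7, 23.6 and 491 in saline and at 0 to 2.95 in control LPS, where it rested on 5 reads. Its limma adjusted p ran from 0.0450 to 0.110 when 1 library was left out, and DESeq2 gave it no adjusted p.

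The 4 most abundant genes that limma did not call in that comparison were Gas6, Maf, Tgfbi and Slc40a1. Gas6, a ligand of the TAM receptors that help clear dying cells, had means of 9182 in saline and 7550.5 in control LPS, a difference of -0.35 (limma adjusted p = 0.606). Maf, a transcription factor of tissue macrophages, differed by -0.55 (limma adjusted p = 0.139). Tgfbi, a matrix protein, differed by 1.34 (limma adjusted p = 0.234), with values of 3261, 18969.99 and 8504 in control LPS against 2806 to 3921 in saline. DESeq2 called Tgfbi (log2 1.66, DESeq2 adjusted p = 0.0194), and so did limma without control LPS library 1, its lowest LPS library (1.99, limma adjusted p = 0.0149). The iron exporter gene Slc40a1 differed by -0.061 (limma adjusted p = 0.929). Genes of MHC class II, which mark another subset of border-associated macrophages, were called in 0 of 7 cases in control LPS against control saline by limma, edgeR and DESeq2, with 1 at an unadjusted limma p under 0.05, beside 18.8% of all genes. Against the same saline libraries, cKO LPS had 0 of 7 called by limma and edgeR and 3 by DESeq2, beside 12.9% of all genes, with 3 at an unadjusted limma p under 0.05, beside 21.8%. H2-Aa had means of 3052 in saline and 1273 in control LPS, with 5349 in saline library 3. The list split: in control LPS against control saline 3 of the 7 had a positive log2 difference, and the median was -0.23. Ciita, the only 1 of the 7 whose groups did not overlap there, was at 43.0 to 77.0 in saline and 79.9 to 143 in control LPS.

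**Figure D5:**
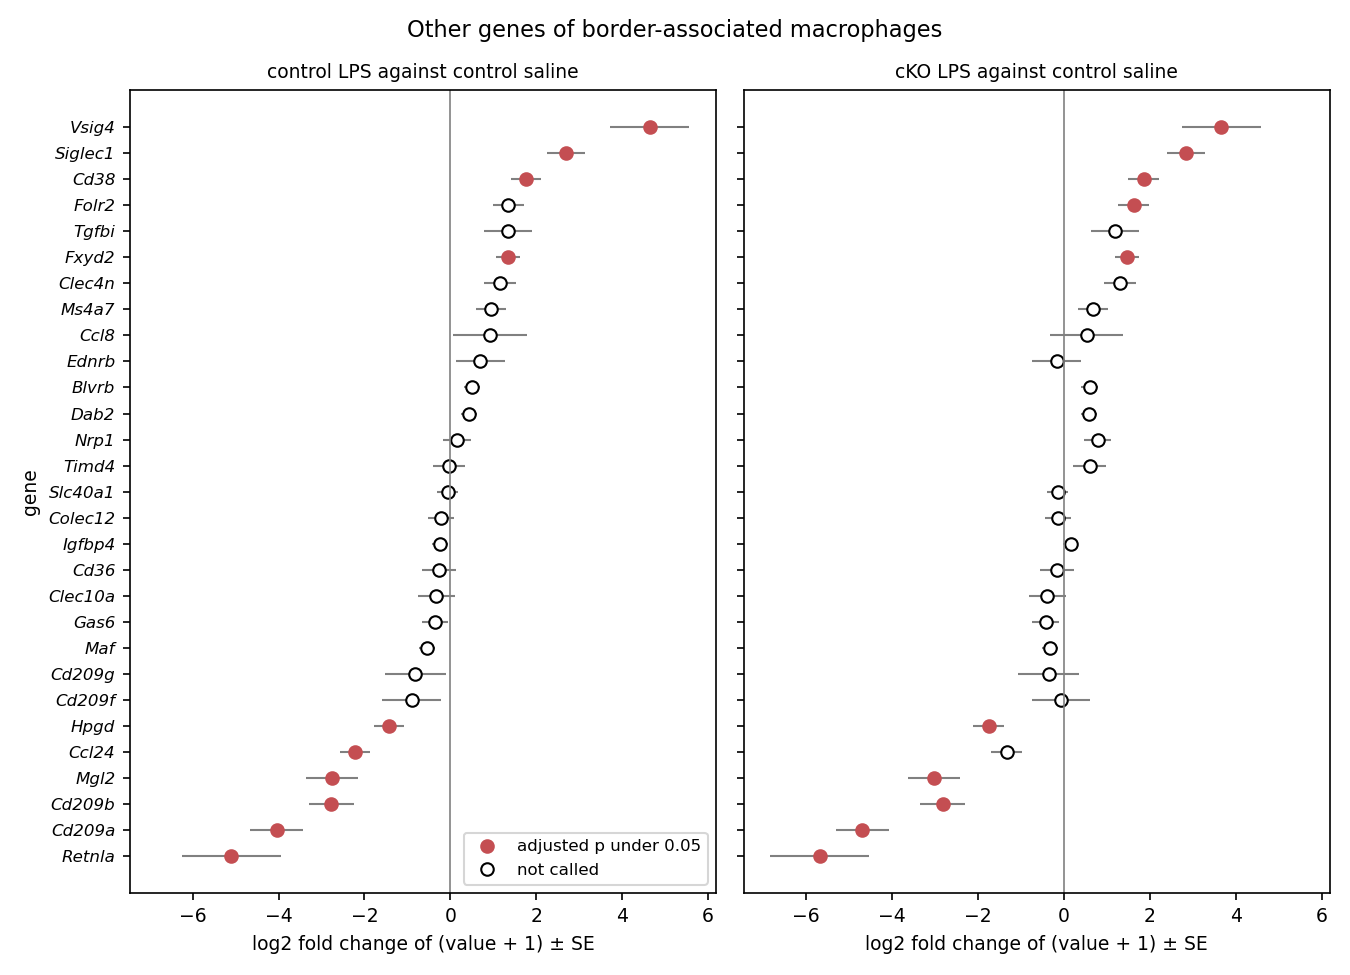
Log2 fold change of (value + 1) ± SE for 29 other genes of border-associated macrophages, in control LPS and in cKO LPS, each against the same control saline libraries. Red points passed an adjusted p of 0.05 in limma: 4 higher and 6 lower at left, 5 higher and 5 lower at right.

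Monocytes, which also make F13a1, and neutrophils carry CD11b, and their markers were higher after LPS. The summed level of 11 monocyte markers was 4946 to 6719 normalized counts in saline, 14954 to 40840.3 in control LPS and 12583 to 25419 in cKO LPS, and 7 of the 11 were called higher by limma in each LPS group against saline, beside 4.68% of all tested genes in control LPS and 5.41% in cKO LPS. The sum of 11 neutrophil markers was 28830.4 to 49041, 69346 to 151325 and 51511 to 92939. In saline Csf3r made up most of it, at 27329 to 48415, and Csf3r was not called by limma in either LPS group, whereas S100a9 had means of 494 in saline and 20944 in control LPS (log2 5.05, limma adjusted p = 0.00490). Limma called 9 of the 11 higher in control LPS and 7 in cKO LPS, each against saline. By library the monocyte sum was 6719, 4946 and 6231 in saline. It was 14954, 40840.3 and 18842 in the control LPS libraries, against 19343, 12583 and 25419 in those of the cKO. F13a1 followed the order of that sum within cKO LPS. In control LPS both were lowest in library 1, but the sum peaked in library 2 and F13a1 in library 3. In saline the sum was highest in library 1 and F13a1 in library 3. Fn1 made up most of the sum in saline, at 5668, 4100 and 4441 normalized counts in libraries 1, 2 and 3. In cKO LPS Fn1 was at 14218, 5959 and 10857. The order of the sum in these 2 groups rested on Fn1. With Fn1 left out, the saline sum was highest in library 3, as F13a1 was. In cKO LPS it was then lowest in library 1, whereas F13a1 was lowest in library 2. The part of monocytes in the levels of F13a1 and of the other markers was not tested.

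Platelet and lymphatic markers were read beside Pf4 and Lyve1. The summed level of the platelet and megakaryocyte list, of which 5 of 11 genes were tested, was 1197 to 1803 normalized counts in saline, 647 to 906 in control LPS and 682 to 748 in cKO LPS. The platelet chemokine gene Ppbp was at 0 to 10.1 in all libraries, far under Pf4 at 416 to 1219. Gp9, a subunit of the platelet von Willebrand receptor, was at 905 to 1409 in saline and thus made up most of the sum there. In control LPS it was at 254 to 361, a fall by 1.78 (limma adjusted p = 0.00292). The list did not fall as a whole: 4 of its 5 tested genes had a positive log2 difference in control LPS against control saline, with a median of 0.18. In cKO LPS against control saline 2 of 5 were positive, with a median of -0.064. Of the lymphatic endothelium list, 4 of 6 genes had values, and Ccl21a and Mmrn1 had none. The sum of the 4 was 859.9 to 1568 in saline, 897 to 1824 in control LPS and 941 to 1204 in cKO LPS. Saline library 3, where Lyve1 was highest, had the lowest of these sums. The astrocyte sum was 97262 in control LPS library 1 and 5318 to 9706 in the other libraries. The part of these cells in the marker levels was not tested.

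Genes with the pattern most like the markers were ranked among 13201 candidates with a mean of at least 50, by Pearson's r over the 9 libraries after subtraction of each group's mean. For the mean of the 7 markers the first 5 were Gm7079 (r = 0.994), Tmem41b (0.993), Alg11 (0.990), ND4 (0.985) and 1110004F10Rik (0.979). The mitochondrial gene ND4 was at 49212 normalized counts in saline library 3, against 29235 and 28225 in saline libraries 1 and 2. The single closest genes were Gabarapl2 for Mrc1 (r = 0.995), Mrps31 for Cd163 (0.979), Nifk for Lyve1 (0.962), Creb3 for Pf4 (0.984), Stx12 for F13a1 (0.996), Calu for Cbr2 (0.994) and Txlna for Stab1 (0.982). None of these is on a list of border-associated macrophage genes or of another cell type used here. The 26 candidates from the longer list of border-associated macrophage genes had a median r of 0.54 to the mean of the markers, against -0.038 over all candidates. Other lists came to 0.65 for 3 platelet and megakaryocyte genes, 0.53 for 3 neuronal genes, 0.48 for 11 monocyte genes, 0.45 for 7 genes of MHC class II and 0.45 for the 12 homeostatic microglia markers, so the value is not particular to the list. With 9 libraries and 1 library far from its group, a high r can rest on that library.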

How the data were processed

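Expression was read from the normalized signal that the authors deposited, the counts of 23134 genes scaled by 1 size factor in each of 9 libraries. For each comparison the authors deposited log2 fold changes, a standard error and test score, and p-values. The submitters' processing notes name DESeq2, edgeR 3.30.3, RSEM, featureCounts, STAR, Trimmomatic, FastQC and MultiQC 1.12, and the build mm10 (GRCm38). What each tool was used for, the annotation and the use of strand are not given there. All values (100%) were whole multiples of a step to within 0.01 of a read, so whole reads were recovered as counts, 10845937 to 86571481 per library.

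Groups were compared with limma-trend (limma 3.58.1 in R 4.3.3) on log2(value + 1) for the 16575 genes with a mean of at least 10, in 1 fit of all 9 libraries with Benjamini-Hochberg adjustment over all tested genes in each comparison. Fold changes on this scale understate the change of low genes. edgeR 4.0.16 and DESeq2 1.42.0 were run on the recovered reads of the same tested genes, and the DESeq2 values given are from that run. A DESeq2 run on all genes, used only as a check, gave each marker an adjusted p within 2.96e-06 of the authors' deposited table. Over all 23134 genes the largest difference in log2 fold change from that table was 1.33 to 1.54, depending on the comparison. The fits were tested on simulated data.

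The markers and all gene lists were chosen with earlier results of these data known. All 7 markers are named; from the longer list, the 8 genes with the smallest adjusted p in control LPS against control saline and the 4 with the largest mean among those not called. Marker lists of other cell types are given as sums of normalized counts. Exon lengths are unions of GENCODE exons, and positions are from RefSeq. Other scalings, pseudocounts, filters, tools, a replicate block and leaving out each library were tried as alternatives. Ratios to Mrc1 and the values by gene length were added after the data were seen.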

Additional observations from a re-analysis of the deposited data

How the results depend on the processing

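The 7 markers had 0 calls by limma in each comparison, and this held with 0.5 or 5 added before log2, with no filter on low values or a mean of at least 50, with quantile or TMM scaling, with only the 6 libraries of the groups compared, and by edgeR. Exceptions were array weights (3 in control LPS against control saline, 4 in cKO LPS against control saline) and DESeq2 (1 in cKO LPS against control saline, Stab1). Leaving out 1 library gave 0 to 1 calls in cKO LPS against control saline, with 1 for Stab1 without saline library 2 and 1 for Cbr2 without saline library 3. Over all genes, control LPS against control saline gave 929 calls, and 417 with the 6 libraries only, 2789 with array weights, 1777 by DESeq2 and 374 to 1826 with 1 library left out. For cKO LPS against control saline the counts were 1131, 3182 with array weights, 2099 by DESeq2 and 490 to 1656 with 1 library left out. For cKO LPS against control LPS they were 0, with 1 for the 6 libraries only, 4 by DESeq2 and 0 to 1 with 1 library left out. Quantile scaling moved the median of all genes in control LPS against control saline from 0.017 to -0.10, with 568 of 811 calls higher, against 776 of 929, and array weights gave 1921 of 2789 higher. The cause of these shifts was not tested.

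Pf4 reversed in control LPS against control saline, to 0.015 with array weights and within -0.62 to 0.16 with 1 library left out, and in cKO LPS against control saline within -0.71 to 0.063, in each case without saline library 3. In cKO LPS against control LPS, Mrc1 became -0.11 with array weights, -0.011 by edgeR and -0.016 by DESeq2, and F13a1 -0.27 with array weights. With 1 library left out that comparison ran from -0.20 to 0.26 for Mrc1, -0.28 to 0.27 for F13a1, -0.026 to 0.44 for Cbr2, -0.22 to 0.14 for Cd163 and -0.22 to 0.10 for Pf4. The median of the 7 markers ran from 0.24 to 0.69, from 0.31 to 0.71 and from -0.10 to 0.27 in the 3 comparisons with 1 library left out.

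The replicate numbers were not taken as pairs, since the labels do not say what they mark and not every same-numbered pair deviated together: their correlation ran from -0.066 to 0.468, with 7 of 9 pairs over 0.1. As a hint from the data, 8 of 9 libraries correlated best with their own number. The replicate block gave 926, 1286 and 0 calls over all genes in the 3 comparisons and 0 calls among the markers in each. Depth limits Lyve1 most, with 213 to 1238 reads per library, and saline library 3 with 10845937 reads in all.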
